A study of Mus musculus with 18 samples.

Results

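The FGF receptors and genes that respond to ERK signalling were followed in mouse hippocampal cultures that carry or lack *Fibcd1*. The group holds 10 genes, taken by name from the deposited table, and all 10 had a row among its 12012 genes. It consists of the receptors *Fgfr1*, *Fgfr2* and *Fgfr3*, the inhibitors *Spry1*, *Spry2*, *Spry4*, *Spred1* and *Dusp6*, and the transcription factors *Etv4* and *Etv5*. The inhibitors and the transcription factors are together called feedback genes here, although *Etv4* and *Etv5* are readouts of the signal and not inhibitors. The genes were chosen on earlier results for the same KO_CSPG and WT_CSPG libraries, in which *Fgfr2* was lower in KO_CSPG, so their values, intervals and calls are given here as a description and support no test. The question asked of them was whether the feedback genes moved with *Fgfr2*.

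FIBCD1 is a transmembrane receptor of the fibrinogen domain family that binds glycosaminoglycans, and chondroitin sulphate proteoglycans (CSPGs) are major carriers of these sugars in the extracellular matrix of the brain. Cultures were made from E18.5 hippocampus and plated on a coating of mixed CSPGs, and poly-A RNA was sequenced as single reads. The WT_CSPG cultures were wild type and the KO_CSPG cultures were homozygous for the whole-body knockout allele *Fibcd1tm1Lex*, on a C57BL/6J background, and each group analysed here had 4 libraries, lettered A to D. All 8 libraries were grown on CSPGs, and the 5 WT libraries, the 4 KO libraries and the WT_CSPG replicate E of this series of 18 libraries were not analysed here, so an effect of the coating itself was not measured. The cultures are primary, so the cells are mixed, and the sex of the embryos behind each library is not stated.

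FGF receptors are receptor tyrosine kinases that, on binding an FGF together with heparan sulphate, recruit the adaptor FRS2 and activate the RAS, RAF, MEK and ERK cascade. ERK then switches on its own brakes. The Sprouty and SPRED proteins act on the cascade between the receptor and RAF, DUSP6 is a phosphatase that inactivates ERK in the cytoplasm, and ETV4 and ETV5 are ETS-family transcription factors whose genes are classical readouts of FGF signalling. In the embryonic forebrain FGF signalling is known for its part in the growth of progenitors and in gliogenesis.

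Values are normalized counts, which are reads per gene after division by the size factor of the library, and fold changes are differences of mean log2(normalized count + 1) between KO_CSPG and WT_CSPG with the standard error from limma. A gene is called where its Benjamini-Hochberg adjusted p over all 12012 genes is under 0.05. The libraries held 10099564 to 11174615 reads over the genes of the table in WT_CSPG and 10541445 to 11647202 in KO_CSPG, and no mean in the table was under 40.7 normalized counts. *Fibcd1* itself had 54.3, 70.4, 60.1 and 182 normalized counts in WT_CSPG A to D and 0.970, 0.932, 7.16 and 4.74 in KO_CSPG A to D. The ranges did not overlap, in the direction of the labels (log2 fold change -4.48, standard error 0.58, adjusted p = 0.00599 from limma, and -5.01 and -2.79 with pseudocounts of 0.1 and 10 in place of 1). Over all genes 346 were called (2.88%), of which 215 were lower in KO_CSPG (1.79%) and 131 were higher (1.09%), and 1108 had groups that did not overlap (9.22%). The fold changes of all genes lay between -0.18 and 0.19 from the 5th to the 95th percentile, with a median of 0.00016.

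The upstream sequence of 3 members is shown, that of *Fgfr2* because its change is the one the others were compared with, and those of *Spry2* and *Etv5* because they were the members whose window held letters of an ETS site. The windows run from 250 bases before to 50 bases after a start site, were read from RefSeq on GRCm38.p6, and are written 5′ to 3′ on the strand of the gene in lower case, with CCGGAA and GGAAGT on either strand in capitals. They lie at chr7:130266759-130267058 (minus strand, *Fgfr2*), chr14:105896770-105897069 (minus strand, *Spry2*) and chr16:22438319-22438618 (minus strand, the more downstream of 2 *Etv5* starts).
Fgfr2: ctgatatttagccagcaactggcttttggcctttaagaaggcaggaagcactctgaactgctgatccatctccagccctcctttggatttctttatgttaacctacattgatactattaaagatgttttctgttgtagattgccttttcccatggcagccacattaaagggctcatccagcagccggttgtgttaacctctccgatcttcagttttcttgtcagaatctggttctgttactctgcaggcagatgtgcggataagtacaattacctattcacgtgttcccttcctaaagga
Spry2: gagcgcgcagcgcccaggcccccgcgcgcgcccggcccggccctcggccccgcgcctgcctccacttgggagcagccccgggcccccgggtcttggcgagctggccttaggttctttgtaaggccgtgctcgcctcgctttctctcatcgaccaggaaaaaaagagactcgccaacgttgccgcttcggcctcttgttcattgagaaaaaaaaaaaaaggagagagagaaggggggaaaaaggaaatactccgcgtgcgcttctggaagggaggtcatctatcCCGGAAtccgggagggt
Etv5: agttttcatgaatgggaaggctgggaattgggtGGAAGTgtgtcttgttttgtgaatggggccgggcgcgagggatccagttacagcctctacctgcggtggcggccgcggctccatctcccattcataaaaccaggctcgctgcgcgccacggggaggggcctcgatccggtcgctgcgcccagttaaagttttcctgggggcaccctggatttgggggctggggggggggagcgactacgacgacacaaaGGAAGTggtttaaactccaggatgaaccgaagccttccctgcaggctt
Of the 10 members, 7 had a window, 9 windows in all, and *Fgfr1*, *Etv4* and *Spry4* had no entry. CCGGAA stood 1 time in the *Spry2* window and GGAAGT 2 times in this *Etv5* window, and neither was found in the other 7 windows. Among all 32851 mouse windows of this length, 32.1% held 1 of these forms or both, against 2 of the 9 member windows. The letters of an AP-1 site (TGANTCA) and of a CRE (TGACGTCA) were in no member window, where 7.81% and 1.79% of all windows held them. G and C made up 43.7% of the *Fgfr2* window, below the median of 52.7% over all windows, and 57.3% to 74.0% of the other 8. These letters are a description of the windows and no binding was measured here.

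*Fgfr2* encodes the receptor with the largest difference among the members. It had 787, 817, 856 and 787 normalized counts in WT_CSPG A to D and 602, 566, 612 and 631 in KO_CSPG A to D. Every KO_CSPG library lay below every WT_CSPG library, with a gap between the lowest WT_CSPG and the highest KO_CSPG value that was wider than the SD of either group. The means were 812 ± 33.0 (SD, n = 4) and 603 ± 27.5 (SD, n = 4), which is 25.7% lower in KO_CSPG (log2 fold change -0.43, standard error 0.05, 95% interval -0.53 to -0.33). *Fgfr2* (ENSMUSG00000030849) was called, and by fold change it was the 57th lowest of the 12012 genes.

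*Fgfr1* encodes the receptor with the highest level here. It had 5263, 5306, 5456 and 4727 normalized counts in WT_CSPG A to D and 4479, 4444, 4450 and 4624 in KO_CSPG A to D. The groups did not overlap, although WT_CSPG D stood close to KO_CSPG D. The means were 5188 ± 319 and 4499 ± 84.8 (SD, n = 4 each), which is 13.2% lower in KO_CSPG (log2 fold change -0.20, standard error 0.04, 95% interval -0.28 to -0.13), and *Fgfr1* (ENSMUSG00000031565, chr8:25513654-25575718, plus strand, GRCm38) was called. Its fold change was closer to 0 than that of *Fgfr2*, and the log2 ratio of *Fgfr1* to *Fgfr2* was higher in KO_CSPG by 0.22 (standard error 0.04), with no overlap between the groups.

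*Fgfr3*, a receptor used by astrocytes and ventricular progenitors, had 531, 603, 602 and 625 normalized counts in WT_CSPG and 576, 578, 564 and 570 in KO_CSPG, each from A to D. The KO_CSPG values all lay inside the range of the WT_CSPG values. The means were 590 ± 41.0 and 572 ± 6.25 (SD, n = 4 each), the log2 fold change was -0.04 (standard error 0.05, 95% interval -0.15 to 0.07) and *Fgfr3* was not called. The remaining receptor gene of the family, *Fgfr4*, had no row in the table.

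**Figure D1:**
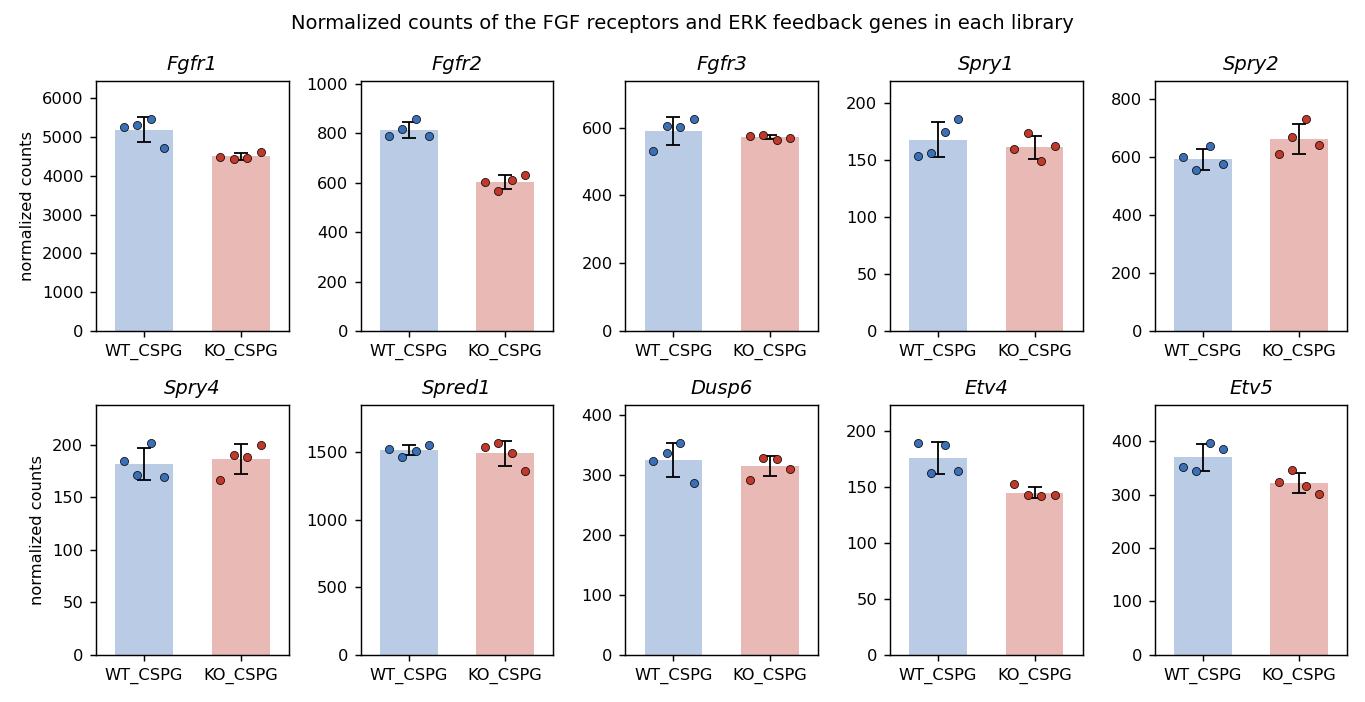
Normalized counts (vertical axes, each from 0) of the 10 members in the WT_CSPG (blue) and KO_CSPG (red) libraries; points are libraries A to D from left to right, bars are means and whiskers are SD (n = 4 each). *Fgfr2*, *Fgfr1* and *Etv4* are the 3 genes in which no red point reaches the blue points.

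Levels can be compared between genes only per length, and the lengths given in the table were used. Over all 8 libraries *Fgfr1* had 490.5 normalized counts per kb, a level above 91.2% of the genes of the table. It was followed by *Spry2* (301.2 per kb), *Spred1* (222 per kb) and *Dusp6* (115 per kb), and within each group of libraries each of these 4 levels was apart from the next. *Etv5* (84.3 per kb), *Fgfr3* (81.2 per kb) and *Fgfr2* (68.5 per kb) came next, below the median of 95.2 per kb over all genes. In WT_CSPG the *Fgfr3* range (74.2 to 87.3 per kb) and the *Fgfr2* range (76.2 to 82.9 per kb) overlapped, while in KO_CSPG *Fgfr3* (78.8 to 80.8 per kb) was apart from *Fgfr2* (54.8 to 61.1 per kb). *Spry1* (56.5 per kb) and *Etv4* (51.6 per kb) overlapped in WT_CSPG and were apart in KO_CSPG, and *Spry4* had the lowest level (40.1 per kb).

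The 5 inhibitors gave no member that was called. Of the Sprouty genes, whose products hold back RAS activation below receptor tyrosine kinases, *Spry2* had 600, 554, 637 and 578 normalized counts in WT_CSPG A to D and 611, 670, 731 and 642 in KO_CSPG A to D. The groups overlapped, since WT_CSPG C lay above KO_CSPG A, and the other 3 KO_CSPG libraries lay above all of WT_CSPG. The means were 592 ± 35.2 and 664 ± 51.1 (SD, n = 4 each), a log2 fold change of 0.16 (standard error 0.06, 95% interval 0.05 to 0.28) in the direction opposite to *Fgfr2*.

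*Spry1* had 154, 156, 175 and 185 normalized counts in WT_CSPG and 159, 173, 149 and 162 in KO_CSPG, and *Spry4* had 185, 171, 202 and 169 in WT_CSPG and 167, 190, 188 and 200 in KO_CSPG, each from A to D. In both genes the libraries of the genotypes were interleaved. The log2 fold change of *Spry1* was -0.05 (standard error 0.09, 95% interval -0.23 to 0.13). That of *Spry4* was 0.04 (standard error 0.08, 95% interval -0.14 to 0.21). Neither interval met that of *Fgfr2* (-0.53 to -0.33), which is a description and no test.

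*Spred1*, whose product brings the RAS GTPase-activating protein neurofibromin to the membrane, had 1528, 1465, 1511 and 1554 normalized counts in WT_CSPG A to D and 1539, 1570, 1497 and 1361 in KO_CSPG A to D. The lowest and the highest of the 8 values were both KO_CSPG libraries. The log2 fold change was -0.02 (standard error 0.04, 95% interval -0.11 to 0.06), the narrowest interval among the feedback genes. *Dusp6* had 324, 337, 354 and 287 normalized counts in WT_CSPG and 293, 328, 327 and 311 in KO_CSPG, with all of KO_CSPG inside the WT_CSPG range. Its log2 fold change was -0.05 (standard error 0.07, 95% interval -0.19 to 0.10).

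The ETS factor genes were the feedback genes with the lowest fold changes. *Etv4* had 189, 162, 187 and 164 normalized counts in WT_CSPG A to D and 152, 143, 142 and 142 in KO_CSPG A to D. The groups did not overlap, with KO_CSPG A closest to WT_CSPG. The means were 176 ± 14.4 and 145 ± 4.96 (SD, n = 4 each), which is 17.3% lower in KO_CSPG (log2 fold change -0.27, standard error 0.09, 95% interval -0.45 to -0.10), and *Etv4* (ENSMUSG00000017724, chr11:101769742-101785371, minus strand, GRCm38) was not called. The *Etv4* interval included the *Fgfr2* estimate of -0.43, the only interval among the feedback genes that did. *Fgfr2* had an interval of its own (-0.53 to -0.33), which the *Etv5* interval (-0.33 to -0.07) also met at its edge. *Fgfr2* was chosen for its low value, so these overlaps are a description and test nothing.

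*Etv5* had 352, 344, 397 and 385 normalized counts in WT_CSPG A to D and 323, 347, 316 and 301 in KO_CSPG A to D. KO_CSPG B lay above WT_CSPG B, and the other 3 KO_CSPG libraries lay below all of WT_CSPG. The means were 370 ± 25.3 and 322 ± 19.0 (SD, n = 4 each), a log2 fold change of -0.20 (standard error 0.06, 95% interval -0.33 to -0.07), and *Etv5* was not called.

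**Figure D2:**
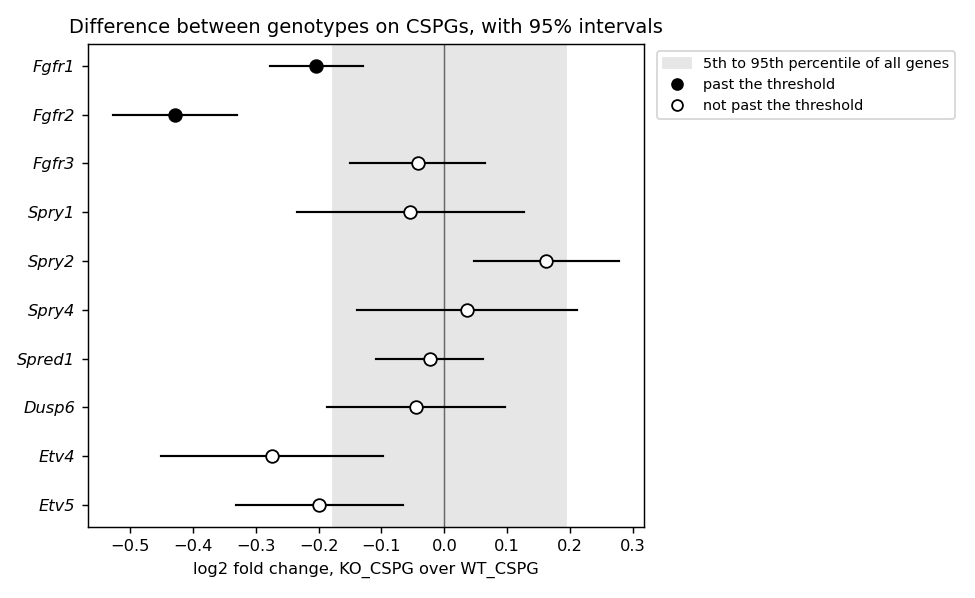
Log2 fold change of KO_CSPG over WT_CSPG (horizontal axis) of each member, with 95% intervals from limma (n = 4 libraries a group); filled points were called, and the grey band is the 5th to 95th percentile of all 12012 genes. *Fgfr2* at -0.43 and *Fgfr1* at -0.20 are the filled points, *Etv4* and *Etv5* lie below the band with open points, and *Spry2* lies at 0.16.

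In all, 2 of the 10 members were called, both lower in KO_CSPG, beside 2.88% of all genes, and 3 of the 10 had groups apart, beside 9.22% of all genes. Since the members were chosen with this contrast known, these counts are not read as a result about the group. Without the trend of variance on mean in the fit, 1 member was called, *Fgfr2*. Of the 7 feedback genes 0 were called by limma, 3 had an unadjusted p under 0.05 (*Spry2*, *Etv4* and *Etv5*), beside 16.2% of all genes, and 1 (*Etv4*) had groups apart. Their median log2 fold change was -0.05, with 5 values below 0 and 2 above, against -0.43 for *Fgfr2*. Taken apart, the 5 inhibitors had a median of -0.02 and the 2 ETS factor genes a median of -0.24.

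Each feedback gene was then set against *Fgfr2* within the same library, which removes the scaling of that library. The log2 ratio to *Fgfr2* was higher in KO_CSPG for all 7, by a median of 0.38. For *Spry2* it was -0.39, -0.56, -0.43 and -0.44 in WT_CSPG A to D and 0.021, 0.24, 0.26 and 0.024 in KO_CSPG A to D. These ratios are not scaled by gene length, so their sign does not rank the 2 genes, and per kb *Spry2* was above *Fgfr2* in every library. The *Spry2* ratio differed between the groups by 0.59 (standard error 0.07), the largest difference of the 7. For *Dusp6* the ratio was -1.28, -1.28, -1.27 and -1.45 in WT_CSPG and -1.04, -0.78, -0.90 and -1.02 in KO_CSPG, and the groups were apart.

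The ratio differed by 0.46 for *Spry4* (standard error 0.07), by 0.40 for *Spred1* (standard error 0.09), by 0.38 for *Dusp6* (standard error 0.07) and by 0.37 for *Spry1* (standard error 0.10), with the groups apart in each. For these 4 genes and *Spry2* every KO_CSPG ratio lay above every WT_CSPG ratio. For *Etv5* the ratio differed by 0.23 (standard error 0.09) and for *Etv4* by 0.15 (standard error 0.07), and in both the groups overlapped. A ratio shows unequal change between 2 genes and not which of them changed. *Fgfr2*, the common denominator, was itself chosen for its difference, so the ratio of an unchanged gene is also higher in KO_CSPG. The share of all genes with such ratios apart was not computed, and the count is not read as particular to the feedback genes.

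**Figure D3:**
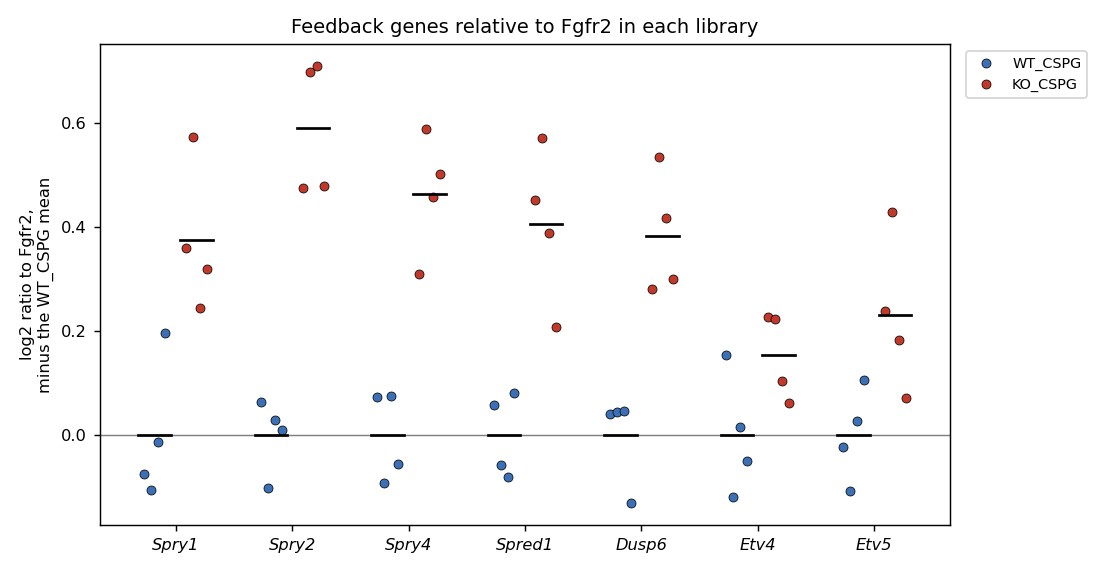
Log2 ratio of each feedback gene to *Fgfr2* in each library, minus the WT_CSPG mean of that ratio (vertical axis); points are libraries A to D from left to right in WT_CSPG (blue) and KO_CSPG (red), and lines are group means (n = 4 each). All red points lie above all blue points for *Spry1*, *Spry2*, *Spry4*, *Spred1* and *Dusp6*, while the colours overlap for *Etv4* and *Etv5*.

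Within the groups the library order of *Fgfr2* was shared by some members in WT_CSPG and by no feedback gene in KO_CSPG. Among the WT_CSPG libraries, *Fgfr2* was lowest in D, then A, then B, and highest in C, with D and A nearly equal, and *Fgfr1* and *Dusp6* had the same order. *Spry4* was also lowest in D. The members highest in C were *Fgfr2*, *Fgfr1*, *Spry2*, *Spry4*, *Etv5* and *Dusp6*, 6 of the 10, and C was the highest of the group for 24.98% of all genes. Among the KO_CSPG libraries, *Fgfr2* was lowest in B and highest in D, and *Fgfr1* followed both, while *Spry4* was highest in D as well. KO_CSPG B was at the same time the highest library for *Spred1*, *Spry1*, *Dusp6* and *Etv5*, 4 of the 7 feedback genes, and was the highest of its group for 27.0% of all genes. These orders rest on 4 libraries a group, and no correlation across the 8 libraries was computed because they fall into 2 groups.

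The genes of the table with the profile nearest to that of *Fgfr2* were found by the root mean square difference of log2 values, each centred on its own mean over the 8 libraries. They were *A930011G23Rik* (0.0512), *Baiap2* (0.0624), which encodes an adaptor of the actin cytoskeleton, *D8Ertd82e* (0.0721), *Inhbb* (0.0738), which encodes a subunit of activin and inhibin, and *Lmna* (0.0741), which encodes the nuclear lamins A and C. All 5 had lower values in KO_CSPG, which their selection fixes, with log2 fold changes from -0.39 to -0.30. Among the members *Etv4* (0.117) and *Fgfr1* (0.123) were nearest, followed by *Etv5* (0.157), and the other 6 lay between 0.208 and 0.309.

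Around the members, 130 further genes of FGF and ERK signalling were listed by their role, and 99 of them had a row. Of these 8 were called (8.08%, beside 2.88% of all genes), 5 lower and 3 higher in KO_CSPG, and the median log2 fold change of the 99 was -0.02. The lists were chosen with earlier results of these data known, so this share is not read as a result about the pathway. Among the FGF ligands 3 of 18 had a row, *Fgf1*, *Fgf2* and *Fgf9*, and 0 were called by limma and 0 had an unadjusted p under 0.05, with 0.25 for *Fgf9* (standard error 0.14, adjusted p = 0.389 from limma) as the gene with the smallest p. The 4 FGF homologous factors, which stay inside the cell and bind sodium channels, all had a row and 0 were called by limma, with 1 at an unadjusted p under 0.05, which was *Fgf12* at 0.13 (standard error 0.05, adjusted p = 0.173 from limma).

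Of the 16 co-receptors and binding partners with a row, *Sdc2* alone was called. It encodes syndecan-2, a heparan sulphate proteoglycan of the cell surface, and it had 692, 663, 723 and 656 normalized counts in WT_CSPG A to D and 596, 607, 563 and 639 in KO_CSPG A to D. The groups did not overlap, and the log2 fold change of -0.18 had a standard error of 0.05 (adjusted p = 0.0415 from limma). The call was kept in 2 of the 8 fits that left out 1 library, those without WT_CSPG D and without KO_CSPG D.

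All 26 adaptor and cascade genes had a row, among them *Frs2* and the genes of RAS, RAF, MEK and ERK, and 25 of them were not called. *Gab1*, a docking protein that joins activated receptors to PI3K and SHP2, was lower, with 553, 656, 592 and 573 normalized counts in WT_CSPG A to D and 535, 517, 475 and 519 in KO_CSPG A to D (log2 fold change -0.21, standard error 0.06, adjusted p = 0.0372 from limma). This call too was kept in 2 of the 8 fits that left out 1 library, those without WT_CSPG A and without WT_CSPG D. Among the other inhibitors *Errfi1*, an inhibitor of the EGF receptor, was the only gene called of 13 with a row. It had 343 to 410 normalized counts in WT_CSPG and 292 to 336 in KO_CSPG (log2 fold change -0.26, standard error 0.07, adjusted p = 0.0304 from limma), and it was not called without WT_CSPG C, KO_CSPG A, KO_CSPG B or KO_CSPG D.

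Among the other transcription outputs of ERK 3 of 18 genes were called, including *Fosb*, which had the largest difference of the listed pathway genes. *Fosb*, an AP-1 subunit induced by activity and by growth factors, had 98.2, 81.2, 109 and 88.7 normalized counts in WT_CSPG A to D and 25.2, 27.0, 29.7 and 21.8 in KO_CSPG A to D. The highest KO_CSPG value was below the lowest WT_CSPG value, and the log2 fold change was -1.82 (standard error 0.15, adjusted p = 2.36e-08 from limma). *Fosl2*, a further AP-1 subunit, had 2470, 2201, 2430 and 2442 normalized counts in WT_CSPG and 1580, 1749, 1791 and 1621 in KO_CSPG (log2 fold change -0.50, standard error 0.04, adjusted p = 2.33e-07 from limma), again without overlap.

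*Ets1*, an ETS factor known from lymphocytes and endothelium, went the other way. It had 60.1 to 72.1 normalized counts in WT_CSPG and 85.3 to 95.1 in KO_CSPG (log2 fold change 0.43, standard error 0.12, adjusted p = 0.0477 from limma), and the call was lost in all 8 fits that left out 1 library. *Fos* itself stood at -0.23 on the log2 scale (standard error 0.10, adjusted p = 0.252 from limma) and *Egr1* at -0.21 (standard error 0.10, adjusted p = 0.333 from limma). *Fos* and *Egr1* were named after their values were seen.

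Of 19 other receptor tyrosine kinases with a row, 2 were called, both higher in KO_CSPG. *Egfr* had 254, 303, 317 and 317 normalized counts in WT_CSPG A to D and 394, 436, 376 and 374 in KO_CSPG A to D (log2 fold change 0.41, standard error 0.07, adjusted p = 0.00147 from limma). *Kit*, the receptor of stem cell factor, had 376, 388, 433 and 419 normalized counts in WT_CSPG and 469, 504, 497 and 484 in KO_CSPG (log2 fold change 0.28, standard error 0.06, adjusted p = 0.00644 from limma). In both genes the groups did not overlap, in the direction opposite to *Fgfr1* and *Fgfr2*. Without the trend of variance on mean the calls of *Egfr*, *Kit*, *Sdc2*, *Gab1* and *Errfi1* were lost.

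**Figure D4:**
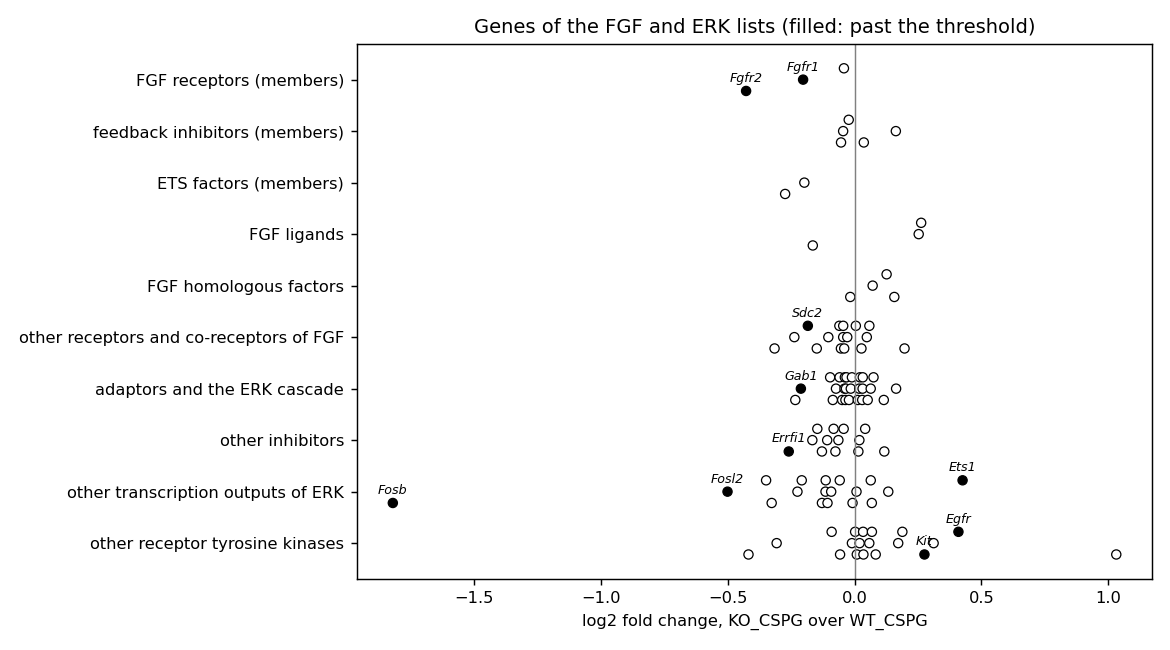
Log2 fold change of KO_CSPG over WT_CSPG (horizontal axis) of the members and of the other listed genes of FGF and ERK signalling, 1 point a gene, by role (vertical axis, with points spread for legibility); filled points were called by limma and are named. *Fosb* at -1.82 is the lowest point, and filled points lie on both sides of 0 among the transcription outputs.

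The label of the libraries is neuron, and markers of other cells were looked at because FGF receptors are used unequally by neurons and glia. All 12 neuronal markers had a row, with *Tubb3* between 14943 and 16140 normalized counts. The astrocyte marker *Gfap* lay between 17695 and 22279, so the cultures held glial as well as neuronal RNA. In bulk RNA fewer cells of a type and less RNA per cell cannot be told apart. The summed oligodendrocyte lineage markers (11 of 13 with a row) were 1455 to 1888 in WT_CSPG and 2115 to 2314 in KO_CSPG, without overlap. *Olig2* was higher in KO_CSPG (log2 fold change 0.79, standard error 0.08, adjusted p = 1.2e-06 from limma), as was *Olig1* (0.59, standard error 0.06, adjusted p = 2.33e-07 from limma), and *Pdgfra* had 1.03 (standard error 0.38, adjusted p = 0.253 from limma). The list was not uniform. Of its 11 genes 9 were not called and 3 had groups apart. The median log2 fold change was 0.17, and 2 genes were below 0, the lowest at -0.30.

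The summed astrocyte and radial glia markers (17 of 18 with a row) were 61462 to 71453 in WT_CSPG and 67921 to 73256 in KO_CSPG, which overlap, and 1 of them, *Nes*, was called and lower (-0.22, standard error 0.04, adjusted p = 0.00192 from limma). *Slc1a3* had -0.02 (standard error 0.07), *Gfap* 0.09 (standard error 0.07) and *Aqp4* 0.32 (standard error 0.11). Of the neuronal markers, whose sums were 84538 to 89672 in WT_CSPG and 83718 to 86304 in KO_CSPG, 1 was called, *Neurod6*, which was lower (-0.19, standard error 0.04, adjusted p = 0.0118 from limma). *Olig1*, *Nes* and *Neurod6* were named after their values were seen. The part of these cells in the values of *Fgfr1* and *Fgfr2* was not tested. The study saw glial genes such as *Pdgfra* and *Olig2* among the top differences between its KO and WT cultures without CSPGs. It proposed that numbers of glia may have differed, and went on to compare only within a genotype.

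The other marker lists held 0 calls by limma, with an unadjusted p under 0.05 for 4 microglial, 1 fibroblast or mural, 1 endothelial, 0 choroid plexus and 0 proliferation genes, beside the same 16.2% of all genes. Of the microglial markers 9 of 13 had a row, without *Aif1*, and their sums were 2295 to 2725 in WT_CSPG and 2453 to 2965 in KO_CSPG. Of the fibroblast and mural markers 6 of 12 had a row, with sums of 439 to 874 and 577 to 1367, and *Col1a1* ran from 25.2 to 147 and from 35.8 to 320 normalized counts. Of the endothelial markers 1 of 10 had a row, and *Cdh5* had none. Of the choroid plexus markers 4 of 14 had a row, with sums of 227 to 4190 in WT_CSPG and 305 to 616 in KO_CSPG, the highest in WT_CSPG D, in which *Ttr* stood at 3529. The 10 proliferation genes summed to 3476 to 3637 and to 3467 to 3740.

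**Figure D5:**
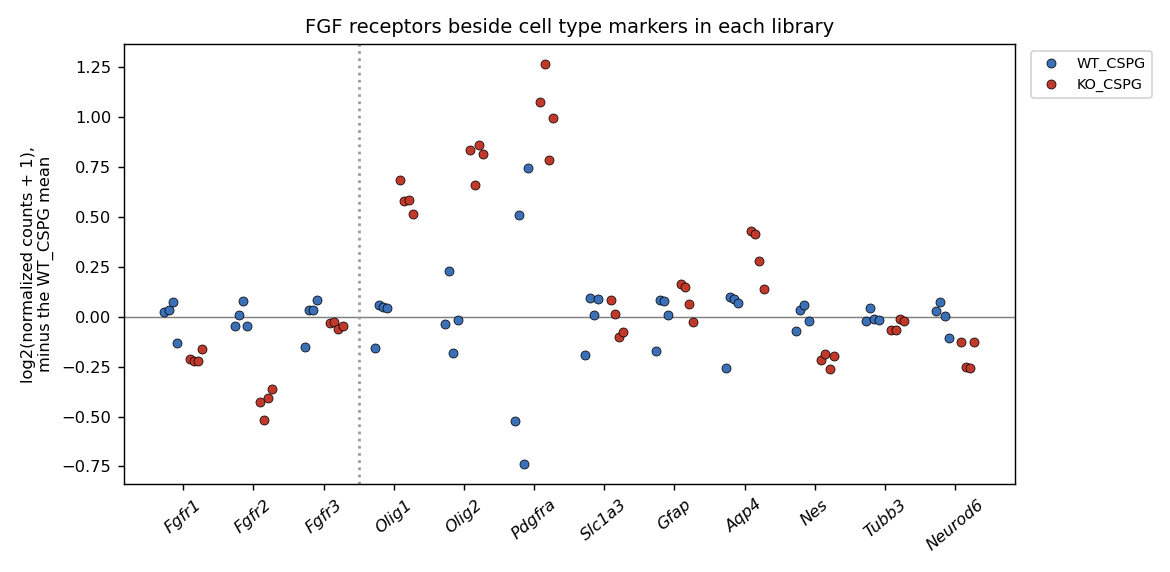
Log2(normalized counts + 1) of the FGF receptors and of cell type markers in each library, minus the WT_CSPG mean of that gene (vertical axis); points are libraries A to D from left to right in WT_CSPG (blue) and KO_CSPG (red). Red points lie below blue points for *Fgfr1*, *Fgfr2* and *Nes* and above them for *Olig1* and *Olig2*.

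The libraries also differed by genotype in sex-linked RNA. The summed Y-linked genes *Ddx3y*, *Eif2s3y*, *Kdm5d* and *Uty* were 1557 to 1935 normalized counts in WT_CSPG and 878 to 1092 in KO_CSPG, and *Xist* was 3912 to 5082 in WT_CSPG and 6375 to 8324 in KO_CSPG. Genotype explained 91.2% of the variance of the summed Y-linked genes, so with these libraries a difference between genotypes and a difference in the sex of the embryos cannot be told apart. With that sum as a covariate 2 of all genes were called (0.0167%) and 0 of the members and of the 99 pathway genes. In that fit 0 members had an unadjusted p under 0.05. *Fibcd1*, the gene knocked out, was not called either (log2 fold change -3.68, standard error 2.11, adjusted p = 0.81 from limma). A lost call in this fit therefore does not separate genotype from sex. The log2 fold change of *Fgfr2* was then -0.28 (standard error 0.16), that of *Fgfr1* -0.14 (standard error 0.12), that of *Etv5* -0.34 (standard error 0.22) and that of *Etv4* 0.05 (standard error 0.29). The inhibitors ran from -0.23 for *Spry1* (standard error 0.30) to 0.22 for *Spry2* (standard error 0.19) in this fit.

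*Fgfr2* and *Fgfr1* were called in each of the 8 fits that left out 1 library, with log2 fold changes from -0.45 to -0.40 and from -0.25 to -0.18, and no other member was called in any of them. Reads of some members could belong to another gene. Of the 50-base windows of the annotated transcripts, 97.5% of those of *Fgfr2* were found in no other gene, and its remaining windows were shared with *Ctbp2*, into which the *Fgfr2* gene model (chr7:130162451-133123350, minus strand, GRCm38) extends. *Ctbp2* differed by -0.06 on the log2 scale (standard error 0.05, adjusted p = 0.633 from limma). The share was 98.5% for *Fgfr1*, 88.4% for *Fgfr3*, 78.2% for *Spry1* and 75.5% for *Etv5*, and 100% for the other 5. *Etv5* shared windows with *Gm4798*, *Fgfr3* with the antisense gene *G630022F23Rik* and with *Nvl*, and *Spry1* with the antisense gene *Gm42922*. Of these partners *Nvl* alone had a row in the table. *Fgfr1* shared its remaining windows with several genes, among them the antisense gene *Gm16159*. Whether the counting used strand is not given in the sources used here. For *Fgfr1*, *Fgfr3* and *Spry1* reads of the antisense partner therefore cannot be told apart.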

How the data were processed

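RNA from hippocampal cultures of WT and KO embryos on CSPGs was isolated with a column kit and made into poly-A libraries by the authors, whose facility aligned the reads. The submitters' processing notes name mm10 and DESeq2, and the aligner, the counter and the use of strand are not given in the sources used here. The day in vitro is 3 in the text of the study and 2 in its appendix. The authors deposited a normalized count signal for 12012 genes, the reads of a gene scaled by DESeq2 size factors, beside the results of their own comparison, which were not used. Whole reads came back from these values and were used only for depth, for the chi-square between libraries of a group and for the reads of the members. All 18 labelled libraries were assigned to groups from their titles, and 8 had a column, of which 0 were left unused.

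Values were fitted as log2(normalized count + 1) with limma 3.58.1 in R 4.3.3 (trend and robust prior, no covariates), with Benjamini-Hochberg adjustment over all 12012 genes. X- and Y-linked genes and pseudogenes were kept. Values measure the spread between these 4 preparations a group. The fit was tested on simulated data. Pairs of libraries in a group differed by more than sampling noise in their reads over genes (chi-square of 1.83 to 2.90 per degree of freedom). Intervals are 95% intervals of that fit. Starts are counted from 1, and 7 of 10 members had the coordinates of GENCODE M21.

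The members and the gene lists were chosen with earlier results of these data known. Named genes are the 10 members, *Fibcd1*, every listed pathway gene that was called or else the gene of its list with the smallest p, the 5 genes with the profile nearest to *Fgfr2*, 10 defining markers, 4 Y-linked genes and *Xist*. Models for counts had been planned as alternatives, but the values are normalized and none was fitted.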

Additional observations from a re-analysis of the deposited data

Results flagged for a closer look

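Among 78 groups of 4 libraries examined, 5 held a library that stood far from the other 3 by Dixon's criterion, where chance gives about 1 in 20, or 3.9. *Etv4*, a feedback gene, was 152 normalized counts in KO_CSPG A against 142 to 143 in the other KO_CSPG libraries, which puts this library nearest to WT_CSPG. *Fibcd1* was 182 in WT_CSPG D against 54.3 to 70.4 in WT_CSPG A to C. *Fosl2* was 2201 in WT_CSPG B against 2430 to 2470 in the other WT_CSPG libraries, and all 4 of these lay above every KO_CSPG library. The astrocyte marker *Aqp4* was 2720 in WT_CSPG A against 3404 to 3485, and the neuronal marker *Tubb3* was 16140 in WT_CSPG B against 15465 to 15559. No other member had such a library in either group.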

How the results depend on the processing

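Without the trend of variance on mean, 80 genes were called (28 higher, 52 lower), 1 member (*Fgfr2*) and 3 pathway genes (*Ets1*, *Fosb* and *Fosl2*), and the cause was not tested. With the summed Y-linked genes as covariate, which genotype nearly fixes, 2 genes were called (*Ndn* and *Rps3a3*), 0 members and 0 pathway genes. In that fit 825 genes, 0 members and 12 pathway genes had an unadjusted p under 0.05, and *Fibcd1* too was not called (adjusted p = 0.81 from limma). *Egfr* was then -0.095 (adjusted p = 0.964 from limma), *Eif2s3y* 0.26 and *Uty* 0.42, and among genes not called *Etv4* was 0.05, *Fgf12* -0.059, *Pdgfra* -0.72, *Gfap* -0.26, *Aqp4* -0.21 and *Col1a1* -2.42, each with the sign turned. Leaving out 1 library gave 186 (without KO_CSPG A) to 576 genes (without WT_CSPG D, 286 higher and 290 lower) and 4 to 10 pathway genes. It gave *Slc1a3* from -0.084 to 0.012 (above 0 without WT_CSPG B, WT_CSPG D or KO_CSPG C), *Col1a1* from -0.079 (without WT_CSPG C) to 1.10, and *Spred1* 0.020 without KO_CSPG D. The number of called genes was 226 without WT_CSPG A, 202 without WT_CSPG C and 204 without KO_CSPG C, and 4 pathway genes without WT_CSPG C, KO_CSPG A or KO_CSPG B and 5 without KO_CSPG C. Both called members stayed called in all 8 of these fits. Upper-quartile scaling gave 360 genes, of which 50.6% were higher against 37.9%, and 6 pathway genes (without *Sdc2* and *Gab1*). A non-robust prior gave 349 genes and added *Pdgfra* (adjusted p = 0.0122 from limma). Pseudocounts of 0.1 and 10 and both filters on low values left 342 to 347 genes and the 2 called members. The median log2 ratio of the feedback genes to *Fgfr2* lay between 0.33 and 0.43 with either pseudocount, upper-quartile scaling or 1 library left out. It was not computed with the Y-linked covariate. In that fit *Fgfr2* was -0.28, *Etv5* -0.34, *Spry1* -0.23, *Dusp6* -0.21, *Spred1* -0.12, *Etv4* 0.05, *Spry4* 0.13 and *Spry2* 0.22, so *Etv5* stood below *Fgfr2*. Over all these alternatives the 29 named genes that are no members gave 414 values with the same direction on the same side of the threshold, 59 that no longer passed it, 2 that newly passed it (*Pdgfra* and *Aqp4*) and 12 of the opposite sign. Of the values of the 10 members 163 moved by less than the spread between replicates and 7, all under the Y-linked covariate, by more. Models for counts were not run. Genes with a mean under 40.7 are not covered, and no feedback gene had fewer than 139 reads in any library.

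With the letter as a replicate block 429 genes were called (167 higher, 262 lower, 327 of them also called without it), the same 2 members and 6 pathway genes (without *Ets1* and *Sdc2*). Deviations of same-lettered libraries correlated over genes at -0.07 (A), 0.10 (B), 0.27 (C) and -0.01 (D), and those of different-lettered libraries at -0.20 to 0.11. The C value was the highest of all pairs. These correlations do not decide whether the letters pair the libraries.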
